A study of Homo sapiens with 16 samples.

Results

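The 10 genes of the AP-1 and immediate early class were followed across every library of the series: FOS, FOSB, FOSL1, FOSL2, JUN, JUNB, JUND, ATF3, EGR1 and IER3. They were taken by symbol, 10 genes among 20166 symbols in the table, and all 10 were measured. The RNA came from RWPE1, an established human line derived from prostate epithelium, and was enriched for poly-A transcripts. There were 6 libraries of cells with an empty vector (altered pTRIPZ), 6 of cells over-expressing a construct in its wild-type form and 4 of cells over-expressing the T164A form. All cells were snap frozen. The labels give no time, inducer or clone, and leave unsaid whether each library is its own culture. The p-values below therefore set differences against variation among libraries that could be technical.

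AP-1 is a dimer of basic leucine zipper proteins, in which a JUN protein pairs with another JUN, with a FOS protein or with an ATF protein. The dimers bind the TRE and the related CRE, short palindromes in promoters and enhancers. FOS, FOSB, JUN, JUNB, ATF3 and EGR1 are immediate early genes, transcribed within minutes of growth factor, serum or stress signals without new protein synthesis, largely through ERK, JNK and p38 kinases acting on SRF, its ETS partners and CREB or ATF factors. In stratified and basal epithelium AP-1 sites lie in genes of the cornified envelope and of wound repair. Since these transcripts are short-lived, their levels can also move with handling and medium, which the labels do not describe.

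Promoter sequence is shown for 3 members whose behaviour in the libraries differed. EGR1 varied most within the vector group, FOS was lower in T164A, and JUND was called in no comparison. Each run is the 250 bases before the gene's start in RefSeq (GRCh38.p14, a later build than the GRCh37 named in the submitters' processing notes). Capitals mark matches on either strand to the TRE (TGAGTCA), the CRE (TGACGTCA) or the CArG box, the site of SRF, searched by its name alone. None of these motifs overlaps another in the runs shown.

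EGR1, chr5:138465229-138465478, plus strand: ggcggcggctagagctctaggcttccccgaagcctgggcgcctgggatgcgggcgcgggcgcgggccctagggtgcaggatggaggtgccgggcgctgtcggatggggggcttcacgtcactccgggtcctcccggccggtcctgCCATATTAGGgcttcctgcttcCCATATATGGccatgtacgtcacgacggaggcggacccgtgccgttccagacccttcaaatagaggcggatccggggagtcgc

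FOS, chr14:75278578-75278827, plus strand: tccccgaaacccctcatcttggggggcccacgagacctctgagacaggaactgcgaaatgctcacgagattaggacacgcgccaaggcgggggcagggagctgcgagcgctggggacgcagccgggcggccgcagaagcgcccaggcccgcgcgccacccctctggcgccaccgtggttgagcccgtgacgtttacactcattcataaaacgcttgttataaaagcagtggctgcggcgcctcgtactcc

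JUND, chr19:18281623-18281872, minus strand: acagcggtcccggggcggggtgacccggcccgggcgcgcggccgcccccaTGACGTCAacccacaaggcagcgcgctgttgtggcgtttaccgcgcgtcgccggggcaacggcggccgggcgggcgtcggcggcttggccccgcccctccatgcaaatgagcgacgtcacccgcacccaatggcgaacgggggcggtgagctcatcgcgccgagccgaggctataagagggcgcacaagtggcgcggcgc

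EGR1 held 2 CArG boxes, at 105 to 96 and 83 to 74 bases before its start. JUND held 1 CRE, at 200 to 193 bases before its start. The other 7 of 9 member windows, which cover 8 members, held no match in these 250 bases. Of 35116 promoter windows of this length, 4.2% held the TRE, 1.65% the CRE and 1.16% the CArG box. A match is a description of the sequence, and no match says only that these letters are not in the window.

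Values are the deposited log2 values, and differences are in log2 units with their standard error (SE) from limma. Estimated depth was 12300000 to 19200000 reads per library, and a floor of 3 reads lies at 2.30. Every member stood above that floor in every library. FOSB was the least covered, at an estimated 57.5 to 139 reads per library, where counting alone gives an SD of up to 0.19. FOSL1 had 94.8 to 228 reads and FOSL2 1782 to 11272. A gene was called where its limma p, adjusted by Benjamini-Hochberg over all 20166 symbols, was below 0.05. Some libraries of a group resembled each other more than the rest, and averaging such close libraries before the fit was 1 alternative to it. Close sets in vector were replicates 1 and 2, and replicates 3, 4 and 6. In wild type the set was replicates 13 and 15 to 18, and in T164A replicates 91, 92 and 94. Vector replicate 5, wild-type replicate 14 and T164A replicate 93 each stood alone. The border of the sets was thin in places, by root mean square log2 difference. Vector replicates 4 and 5, in different sets, differed by 0.188, and 3 and 4, in 1 set, by 0.185. Wild-type replicates 13 and 14, in different sets, differed by 0.229, and 13 and 18, in 1 set, by 0.2275. That fit has fewer units and less power, and a lone library weighs as much as a set.

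Markers of cell types, and 6 genes chosen from these data, moved with the groups. All 9 basal markers had group means above the floor in every group, but all 9 fell in wild type, with a median difference of -0.58. Their summed level ran from 17.78 to 18.05 in vector, 17.10 to 17.57 in wild type and 16.75 to 16.99 in T164A. In T164A minus vector 6 of the 9 fell and ITGB4 rose, from a mean of 13.81 to 14.50. KRT14, at 14.53 in vector and 14.31 in T164A, and COL17A1, at 14.001 and 14.09, were not called there. All 8 luminal markers rose in wild type, where their sum was 15.64 to 16.70 against 6.50 to 7.34 in vector. The means of KLK3, KLK2 and HPN were among those below the floor in vector. In T164A the luminal sum was 10.33 to 10.45, with the means of KLK3, KLK2, TMPRSS2 and HPN below the floor. The 6 genes IRS4, PRAME, DACH1, NRN1, POU3F3 and DPYSL5, chosen from earlier results of these data, summed to 14.04 to 14.14 in T164A, 9.25 to 10.29 in wild type and 2.45 to 3.39 in vector. Of 11 fibroblast, endothelial and leukocyte markers measured, 4 had a mean above the floor in vector, 3 in wild type and 5 in T164A, with summed ranges of 10.65 to 11.14, 10.20 to 10.61 and 9.32 to 9.75. COL1A1, with means of 10.85, 10.23 and 9.24, made up most of that sum. Other genes of the list, named after their values were seen, did not follow it: COL3A1 rose from 0.62 in vector to 6.75 in T164A and LUM from -0.64 to 4.83, and VWF rose from 3.62 in vector to 6.65 in wild type. DCN, COL1A2, CDH5, CD3E and LYZ had means below the floor in all 3 groups. Whether the 3 groups hold the same kind of cells, or a mixture, was not tested. The part of these differences in the results on AP-1 genes was not tested either. In bulk RNA, fewer cells of a type and less RNA per cell cannot be told apart.

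**Figure D1:**
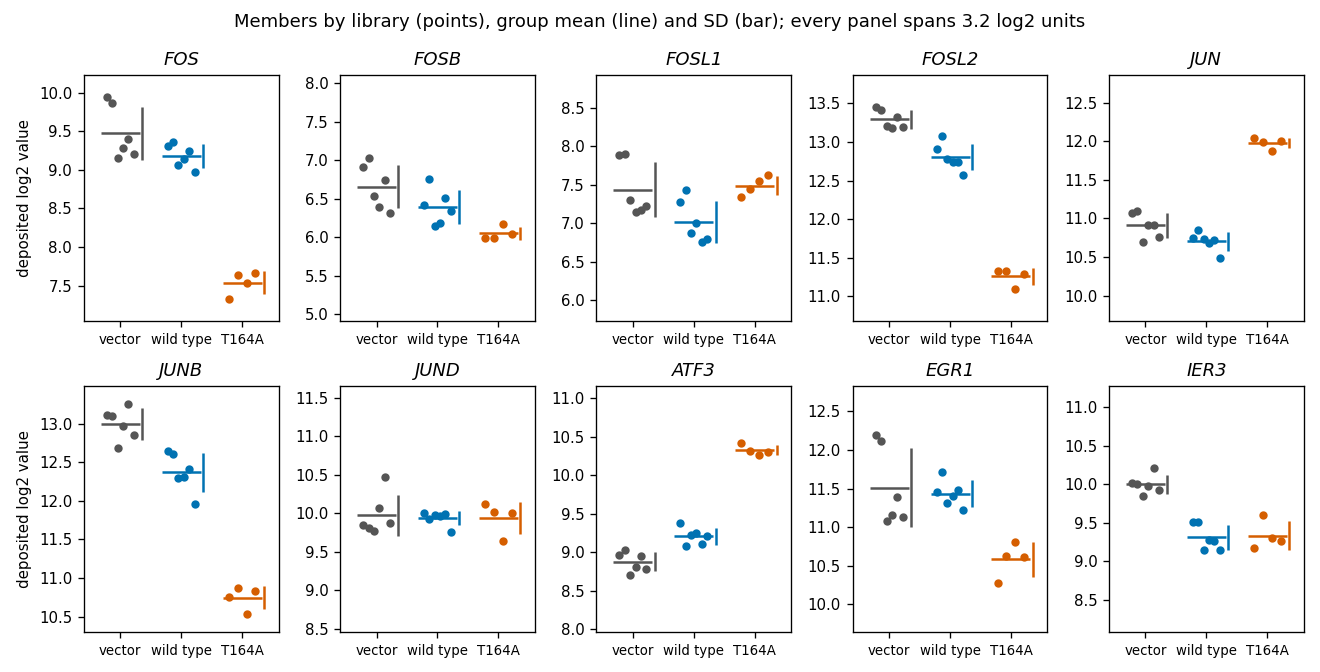
Deposited log2 value (y axis) of each of the 10 genes in vector, wild-type and T164A libraries (x axis), with points for libraries, a line for the group mean and a bar for the SD. FOS, FOSL2 and JUNB sit far lower in T164A, JUN and ATF3 sit higher there, and JUND overlaps in all groups.

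In the comparison of wild type with vector, 7 of the 10 genes were called, against 45.5% of all genes. All 10 members had a mean of 6 or more over the libraries. Among the 11167 genes at or above that mean, fitted alone, 68.9% were called, 40.3% lower and 28.5% higher. There 6 fell (FOS, FOSL1, FOSL2, JUN, JUNB and IER3), against 24.5% of all genes. ATF3 rose, against 21% of all genes, and FOSB, JUND and EGR1 were not called. The called changes were from 0.21 to 0.69 in size. For 4 genes the groups did not overlap (against 29.4% of all genes), ATF3 being higher (against 14.6%) and FOSL2, JUNB and IER3 lower (against 14.8%). With close libraries averaged, 3 of the 10 genes were called (FOSL2, JUNB and IER3, all lower), against 18.9% of all genes. Without vector replicates 1 and 2, 2 were higher and 3 lower, against 20.9% and 22.6% of all genes. In the comparison of T164A with vector, 8 of 10 were called, against 64.4% of all genes. Among genes at a mean of 6 or more, fitted alone, 84.7% were called, 37% lower and 47.7% higher. There 6 fell (FOS, FOSB, FOSL2, JUNB, EGR1 and IER3), against 27.2% of all genes. JUN and ATF3 rose, against 37.1%, and FOSL1 and JUND were not called. The falls reached 2.25. The same 8 genes did not overlap between the groups (against 55.5% of all genes), 2 higher (against 33.1%) and 6 lower (against 22.4%). Of all calls in this comparison 57.7% were higher, and 47.2% under quantile normalization. Between wild type and T164A 7 of 10 were called, against 61.8% of all genes. Among genes at a mean of 6 or more, fitted alone, 81% were called, 46.8% lower and 34.2% higher, and FOSB was also called there. Wild type lay above T164A for FOS, FOSL2, JUNB and EGR1 (4 of 10, against 26.7% of all genes) and below it for FOSL1, JUN and ATF3 (3 of 10, against 35.1%). All of these but FOSL1 had groups without overlap, 6 of 10 against 52.4% of all genes, with 4 higher (against 21.2%) and 2 lower (against 31.2%). For all 3 comparisons, shares without overlap were not computed among genes at a mean of 6 or more. The median difference of the 10 genes was -0.28 in wild type minus vector, where that of all genes was -0.05. It was -0.64 in T164A minus vector, where that of all genes was 0.11, and 0.17 in wild type minus T164A, where it was -0.08. Both comparisons with vector use the same 6 vector libraries.

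**Figure D2:**
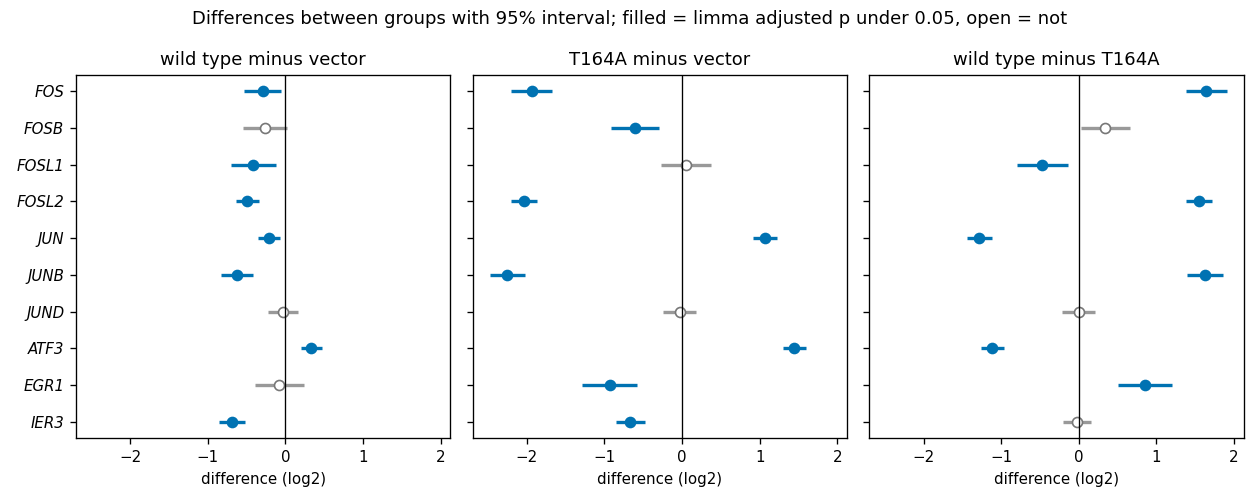
Difference in log2 units (x axis) with its 95% interval for each of the 10 genes (y axis) in the 3 comparisons; filled points were called by limma and open points were not. In T164A minus vector, JUNB, FOSL2 and FOS lie near -2, while ATF3 and JUN lie at 1.45 and 1.07.

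FOS, the prototype of its family, carries a transactivation domain and does not form homodimers. Its vector libraries ran from 9.15 to 9.94 with a median of 9.34, and its wild-type libraries from 8.97 to 9.36 with a median of 9.19. In T164A the 4 libraries were at 7.33, 7.64, 7.53 and 7.66. All 4 lay below every library of both other groups. FOS was 3.83-fold lower in T164A than in vector (-1.94, SE 0.13, limma adjusted p = 4.82e-13) and 3.12-fold lower than in wild type (limma adjusted p = 1.67e-11). Wild type and vector overlapped, and wild type was lower (-0.29, SE 0.11, limma adjusted p = 0.0374). That call was lost without vector replicate 1 (-0.20, adjusted p = 0.129) or 2 (-0.22, adjusted p = 0.12), without the variance trend (adjusted p = 0.101), with close libraries averaged (-0.25, adjusted p = 0.322), and without wild-type replicates 15, 16 or 18 (adjusted p = 0.079, 0.064 and 0.0931). Without both vector replicates 1 and 2 the difference was -0.08 (limma adjusted p = 0.508).

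FOSB, a close relative of FOS with its own transactivation domain, was the lowest of the 10 on the deposited scale. It ran from 6.32 to 7.03 in vector and from 6.15 to 6.76 in wild type. In T164A it was at 5.99, 5.99, 6.17 and 6.04. These 4 lay below all vector libraries and overlapped the wild-type range. FOSB fell in T164A against vector by 0.61 (SE 0.15, limma adjusted p = 9.51e-04), or by 1.20 under quantile normalization. Wild type minus vector was -0.26 (SE 0.14, limma adjusted p = 0.119), and wild type minus T164A was 0.34 (SE 0.15, limma adjusted p = 0.0527). Both were called under quantile normalization (-0.53 and 0.68, adjusted p = 0.00238 and 3.78e-04). The first was also called without wild-type replicate 14 (-0.34, adjusted p = 0.0418). The second was also called without wild-type replicate 15 or 16 or T164A replicate 93 (0.38 to 0.39, adjusted p = 0.034 to 0.0466), and with a filter, with array weights or on only the groups compared (adjusted p = 0.0347 to 0.048).

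FOSL1 (Fra-1) and FOSL2 (Fra-2) lack the strong transactivation domain of FOS, and FOSL1 is often sustained by prolonged ERK signalling. FOSL1 was the FOS family member that was not called in T164A minus vector. Its libraries ran from 7.15 to 7.89 in vector (median 7.26) and from 6.76 to 7.43 in wild type (median 6.94). In T164A they were at 7.33, 7.44, 7.55 and 7.63, inside the vector range. T164A minus vector was 0.05 (95% interval -0.27 to 0.38, limma adjusted p = 0.8). Under quantile normalization it was -0.38 (limma adjusted p = 0.0369). Wild type was lower than vector (-0.41, SE 0.14, limma adjusted p = 0.017), but not without vector replicate 1 or 2 (-0.33 and -0.32, adjusted p = 0.0581 and 0.0588) or without both (-0.19, adjusted p = 0.243), nor with close libraries averaged (-0.24, adjusted p = 0.485). Under quantile normalization the same difference was -0.63. FOSL1 was 1.38-fold lower in wild type than in T164A (-0.47, SE 0.16, limma adjusted p = 0.0114), a call lost under quantile normalization (-0.25, adjusted p = 0.183) and with close libraries averaged (-0.32, adjusted p = 0.258).

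FOSL2 fell furthest within the FOS family. Its values were 13.18 to 13.46 in vector and 12.57 to 13.07 in wild type, with no overlap. In T164A the values were 11.32, 11.32, 11.09 and 11.29, again apart from both other groups. FOSL2 was 4.11-fold lower in T164A than in vector (-2.04, SE 0.08, limma adjusted p = 1.76e-17). It was 1.41-fold lower in wild type than in vector (-0.49, SE 0.07, limma adjusted p = 3.13e-06), which held with sets of close libraries averaged.

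Among the JUN proteins, JUN is the strongest activator and can act as a homodimer, JUNB is a weaker activator that can restrain JUN, and JUND is commonly expressed at a steady level in resting cells. JUNB had the largest fall of the 10 genes in T164A minus vector. It ran from 12.68 to 13.26 in vector (median 13.03) and from 11.96 to 12.65 in wild type (median 12.36). In T164A JUNB was at 10.75, 10.87, 10.53 and 10.83. The 3 groups did not overlap. JUNB was 4.77-fold lower in T164A than in vector (-2.25, SE 0.11, limma adjusted p = 1.29e-15) and 3.09-fold lower than in wild type (limma adjusted p = 1.25e-12). It was 1.54-fold lower in wild type than in vector (-0.63, SE 0.10, limma adjusted p = 8.75e-06).

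JUN moved the other way in T164A. Vector libraries ran from 10.69 to 11.10 and wild-type libraries from 10.49 to 10.85. The T164A libraries were at 12.04, 11.99, 11.88 and 12.01, each above every library of both other groups. JUN was 2.10-fold higher in T164A than in vector (1.07, SE 0.08, limma adjusted p = 2.02e-12) and 2.43-fold higher than in wild type (limma adjusted p = 8.24e-14). Wild type and vector overlapped, and their difference was small (-0.21, SE 0.07, limma adjusted p = 0.0126). It was not called under quantile normalization (-0.15, adjusted p = 0.0596), without vector replicates 1 and 2 together (-0.12, adjusted p = 0.152) or with close libraries averaged (-0.17, adjusted p = 0.371).

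JUND was the flattest member, at 9.97 ± 0.26 (SD, n = 6) in vector, 9.94 ± 0.09 (SD, n = 6) in wild type and 9.94 ± 0.21 (SD, n = 4) in T164A. Its libraries ran from 9.77 to 10.47 in vector and from 9.76 to 10.01 in wild type, and T164A was at 10.12, 10.01, 9.64 and 9.999. All 3 groups overlapped. Vector replicate 5, at 10.47, was its highest library, and T164A replicate 93, at 9.64, its lowest. T164A minus vector was -0.03 (95% interval -0.25 to 0.19, limma adjusted p = 0.819), and wild type minus vector was -0.03 (95% interval -0.23 to 0.16, limma adjusted p = 0.812).

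The balance within each family was taken as a log2 ratio of 2 genes in the same library, which a single scaling factor for the library leaves as it is. FOSL1 minus FOS was -2.04 ± 0.13 (SD, n = 6) in vector, -2.16 ± 0.19 (SD, n = 6) in wild type and -0.05 ± 0.10 (SD, n = 4) in T164A. The T164A libraries, at 0.01, -0.20, 0.02 and -0.03, all lay above the highest of the others, -1.86. The difference of T164A from vector was 1.99 (exact two-sided permutation p = 0.00476, adjusted over 9 tests 0.00612), the smallest p these groups allow. Wild type minus vector was -0.12 (exact permutation p = 0.234, adjusted 0.234). Quantile normalization, which is no single factor, brought it to -0.30 (exact permutation, adjusted p = 0.0122).

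JUNB minus JUN changed sign. It was 2.09 ± 0.13 (SD, n = 6) in vector, 1.67 ± 0.15 (SD, n = 6) in wild type and -1.24 ± 0.10 (SD, n = 4) in T164A. None of the groups overlapped. T164A minus vector was -3.32 (exact permutation p = 0.00476, adjusted 0.00612), and wild type minus vector was -0.42 (exact permutation p = 0.00216, adjusted 0.00612, again the smallest possible). JUND minus JUN was -0.94 ± 0.30 (SD, n = 6) in vector and -2.04 ± 0.14 (SD, n = 4) in T164A, a difference of -1.10 (exact permutation p = 0.00476, adjusted 0.00612). In wild type it was -0.76 ± 0.08 (SD, n = 6), which differed from vector by 0.18 (exact permutation p = 0.201, adjusted 0.226). Without vector replicate 5 that difference was 0.27 (exact permutation, adjusted p = 0.0122).

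Levels of different genes can be set side by side only per length. Dividing each linear value by the gene's exon length in GENCODE 29 (1840 bases for FOSL1, 2938 for FOS, 5553 for FOSB and 6794 for FOSL2) gave each gene's share of its family. FOSL2 held 80.6% ± 2.49 (SD, n = 6) of the FOS family in vector, 78.8% ± 0.671 (SD, n = 6) in wild type and 67.5% ± 2.89 (SD, n = 4) in T164A. FOSL1 held 5.17% ± 0.777 (SD, n = 6), 5.30% ± 0.497 (SD, n = 6) and 18.4% ± 1.84 (SD, n = 4). The FOS share was 13.3% ± 1.75 (SD, n = 6), 14.8% ± 0.717 (SD, n = 6) and 11.9% ± 1.08 (SD, n = 4). JUNB held 80.5% ± 0.879 (SD, n = 6) of the JUN family in vector and 36.1% ± 1.37 (SD, n = 4) in T164A, where JUN held 43.7% ± 1.77 (SD, n = 4). The JUN share in vector was 9.77% ± 0.839 (SD, n = 6). The family sums per kilobase also differed. For the FOS family the mean log2 sum was 10.84 in vector, 10.38 in wild type and 9.06 in T164A. For the JUN family it was 12.45, 11.93 and 11.35. The larger FOSL1 share in T164A thus stands beside a lower family sum, and FOSL1 itself was not called against vector. The shares are descriptions and were not tested apart from the ratios above. With the longest transcript as the length, FOSL2 held 76.4% in vector and 63.2% in T164A, and FOSL1 5.33% and 18.7%.

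**Figure D3:**
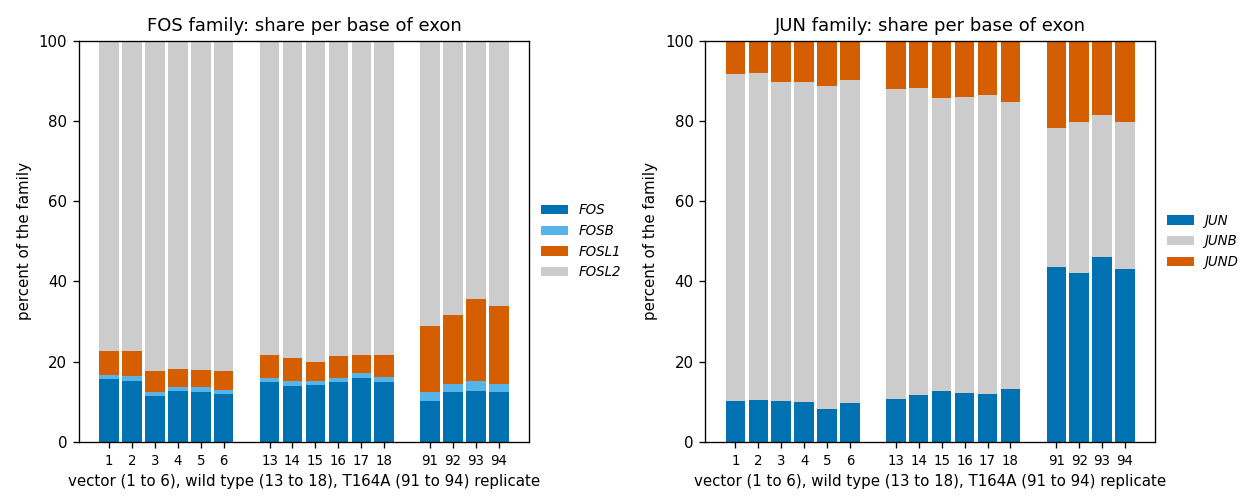
Share of each gene in its family per base of exon (y axis, percent) in every library (x axis, by replicate number). FOSL2 and JUNB fill most of each bar in vector and wild type, while in T164A the FOSL1 share is 16.5% to 20.4% and the JUN share 42.0% to 46.2%. Family sums, which are lower in T164A, are not shown.

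The remaining members are not FOS or JUN proteins. ATF3, a stress-induced zipper protein that pairs with JUN and binds CRE-like sites, was the member that rose in both comparisons with vector. It ran from 8.71 to 9.02 in vector and from 9.08 to 9.38 in wild type. The T164A libraries were at 10.42, 10.32, 10.26 and 10.29. The 3 groups did not overlap. ATF3 was 2.73-fold higher in T164A than in vector (1.45, SE 0.07, limma adjusted p = 1.74e-15) and 1.26-fold higher in wild type than in vector (0.33, SE 0.06, limma adjusted p = 1.22e-04). The latter was not called with close libraries averaged (0.25, adjusted p = 0.175).

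EGR1, a zinc finger factor that is a standard readout of ERK acting on SRF, spread most widely in vector. It was at 12.20 and 12.12 in vector replicates 1 and 2 and at 11.08 to 11.39 in the other 4. Wild-type libraries ran from 11.22 to 11.72, below replicates 1 and 2 and overlapping the other 4. The T164A libraries were at 10.27, 10.63, 10.81 and 10.61, below every library of both other groups. EGR1 was 1.91-fold lower in T164A than in vector (-0.93, SE 0.17, limma adjusted p = 2.99e-05), and the difference was -0.61 without vector replicates 1 and 2 (adjusted p = 1.47e-05). Wild type minus vector was -0.08 (95% interval -0.39 to 0.24, limma adjusted p = 0.73). Without those 2 libraries wild type lay above vector by 0.24 (adjusted p = 0.0383).

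IER3, an immediate early gene that modulates apoptosis and ERK signalling, was lower than vector in both groups. It ran from 9.85 to 10.21 in vector and from 9.15 to 9.52 in wild type, without overlap. The T164A libraries were at 9.18, 9.60, 9.31 and 9.26. Wild type was 1.61-fold lower than vector (-0.69, SE 0.08, limma adjusted p = 7.75e-08) and T164A 1.59-fold lower (-0.67, SE 0.09, limma adjusted p = 2.43e-07). The wild-type and T164A libraries overlapped, and wild type minus T164A was -0.02 (95% interval -0.21 to 0.16, limma adjusted p = 0.844). IER3 stands on 6 rows of the table, and the row with the highest mean was used. The other 5 rows never exceeded 2.21, below the floor. A mean over all 6 rows gives 0.043 for wild type minus vector (adjusted p = 0.943) and -0.13 for T164A minus vector (adjusted p = 0.808).

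The vector libraries differed among themselves. Vector replicates 1 and 2 lay above all other 4 vector libraries for 7 of 10 members (FOS, FOSB, FOSL1, FOSL2, JUN, ATF3 and EGR1), a position that 15% of all symbols held. This pair was chosen after seeing the data, so the count beside that share is a description and no test. The 2 libraries exceeded the mean of the others by 0.97 for EGR1, 0.68 for FOSL1 and 0.64 for FOS. For FOSL2, JUN and ATF3 the same gap was 0.21, 0.26 and 0.18. JUNB, JUND and IER3 did not share it, and were highest in vector replicate 5, at 13.26, 10.47 and 10.21. Replicate 3 was the lowest vector library for 7 of the 10, and the share of all genes lowest there was not computed. The summed basal markers were 18.04, 18.05 and 18.05 in replicates 1, 2 and 5 and 17.78 to 17.82 in the others. The summed heat shock genes were 16.20 and 16.19 in replicates 1 and 2, 16.35 in replicate 5 and 16.11 to 16.13 in the others. Their part in the spread of the AP-1 genes was not tested.

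**Figure D4:**
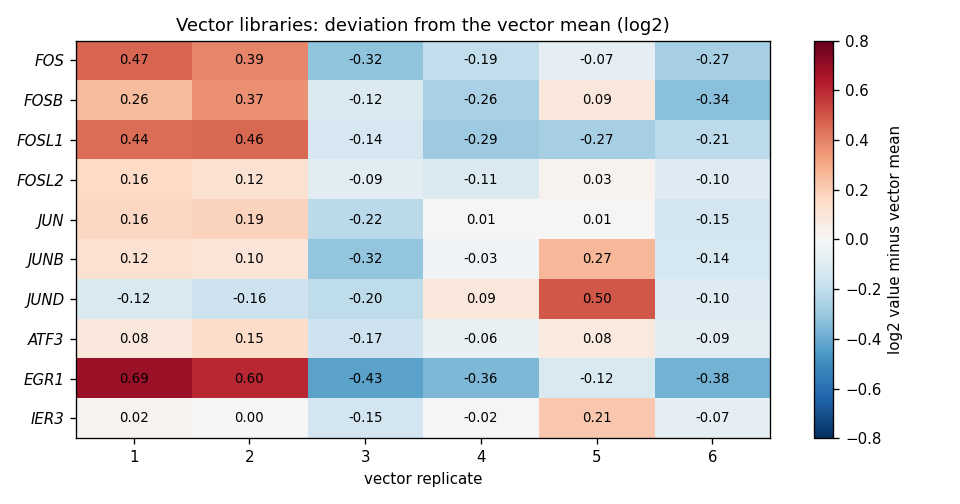
Deviation of each of the 10 genes (y axis) from its vector mean, in log2 units, in the 6 vector libraries (x axis). Replicates 1 and 2 are high for FOS, FOSB, FOSL1 and EGR1, and replicate 5 is high for JUNB, JUND and IER3.

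The wild-type libraries also differed among themselves. Replicate 14 was the highest wild-type library for 7 of 10 members (FOS, FOSB, FOSL1, FOSL2, JUN, EGR1 and IER3) and the lowest for ATF3. Replicate 18 was the lowest for 6 (FOS, FOSL2, JUN, JUNB, JUND and EGR1). Summed luminal markers were lowest in replicate 14, at 15.64, and highest in replicate 18, at 16.70. Summed basal markers were 17.57 and 17.10 in the same libraries. In T164A, replicate 93 was the lowest library for 5 members, FOSL2, JUN, JUNB, JUND and ATF3. Replicate 14 was also the deepest wild-type library, at an estimated 19200000 reads, and replicate 18 the shallowest, at 12300000. Replicate 93 was the shallowest T164A library, at 12800000. The part of depth in these ranks was not tested. The share of all genes highest or lowest in the same libraries was not computed, so the counts are descriptions only.

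Other zipper proteins that pair with FOS or JUN were split. Of 12 measured, 7 fell and 1 rose in wild type minus vector, where 24.5% of all genes fell and 21% rose. In T164A minus vector 6 fell and 4 rose, where 27.2% of all genes fell and 37.1% rose. Such shares, here and for the lists below, include genes near the floor. They were larger in the fit limited to 11167 better covered genes. There 40.3% fell and 28.5% rose in wild type, and 37% fell and 47.7% rose in T164A. Between wild type and T164A, 46.8% were lower in wild type and 34.2% higher. No list was tested for an excess over these shares. The small MAF protein MAFG fell by 0.48 (SE 0.06) in wild type, and MAFK fell by 1.79 (SE 0.08) in T164A. MAF fell by 0.34 (SE 0.05) in wild type, a call lost with close libraries averaged (adjusted p = 0.0716). CREB5, a relative of ATF2 that dimerizes with JUN, rose by 5.71 (SE 0.17) in T164A, from 4.62 to 10.33. ATF2 itself differed by 0.14 (SE 0.08, limma adjusted p = 0.132) in wild type, and was called without vector replicate 1 (0.20, adjusted p = 0.0286). ATF7 differed by 0.14 (SE 0.07, limma adjusted p = 0.067) in T164A, and was called without vector replicate 1 (0.16, adjusted p = 0.0396) and with array weights (0.15, adjusted p = 0.0222). The group means of BATF lay below the floor in all 3 groups.

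Of 24 other immediate early genes, 11 fell and 3 rose in wild type minus vector, with a median of -0.33. Of all genes 24.5% fell and 21% rose there. In T164A minus vector 13 fell and 5 rose, with a median of -0.39, where that of all genes was 0.11. Of all genes 27.2% fell and 37.1% rose in that comparison. The nuclear receptor NR4A1 rose by 1.88 (SE 0.18) and the small GTPase RHOB by 1.19 (SE 0.11) in wild type. RHOB rose by 2.29 (SE 0.12) in T164A. IER5 fell by 0.74 (SE 0.07) in wild type. The kinase SGK1 fell by 3.08 (SE 0.10) in T164A and KLF4, a factor of epithelial differentiation, by 2.34 (SE 0.08). IER2 was higher in wild type than in T164A by 0.80 (SE 0.07). MCL1, a BCL2 relative, differed by -0.14 (SE 0.07, limma adjusted p = 0.0736) in wild type minus vector, and KLF6 by -0.27 (SE 0.13, limma adjusted p = 0.0678) in T164A minus vector. MCL1 was called lower in wild type with array weights and without vector replicate 5 or wild-type replicate 14 (adjusted p = 0.0189 to 0.0434). KLF6 was called lower under quantile normalization and without vector replicate 4, 5 or 6 (adjusted p = 0.00512 to 0.0338).

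The ERK feedback list held 14 genes taken as outputs of ERK, only some of which feed back on it. Of the 14, 10 fell and 1 rose in wild type, with a median of -0.51. Of all genes 24.5% fell there, with a median of -0.05. In T164A 10 of the 14 rose and 3 fell, with a median of 0.99, where 37.1% of all genes rose and the median was 0.11. In the direct comparison 10 of 14 were lower in wild type than in T164A and 1 was higher, against 35.1% and 26.7% of all genes. The ETS factors ETV5 and ETV4 rose by 2.64 (SE 0.12) and 2.75 (SE 0.15) in T164A, and SPRY1, an antagonist of receptor tyrosine kinase signalling, rose by 2.27 (SE 0.14). SPRY2 was lower in wild type than in T164A, with a difference of -1.94 (SE 0.11). FOS and EGR1, which ERK also induces, fell in the same T164A libraries. In wild type the ephrin receptor EPHA4 fell by 0.94 (SE 0.10) and PHLDA1 by 0.84 (SE 0.10). ETV1 was the gene of the list that rose there, by 5.72 (SE 0.21). SPRED2 differed by -0.15 (SE 0.07, limma adjusted p = 0.0705) in wild type, and was called lower under quantile normalization, with the filter and without vector replicate 4 or wild-type replicate 14 (adjusted p = 0.00376 to 0.0498). EPHA2 differed by -0.10 (SE 0.08, limma adjusted p = 0.333) between wild type and T164A, and by -0.15 with array weights (adjusted p = 0.045).

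Of 17 kinases and SRF cofactors upstream of the members, 6 fell and 2 rose in wild type, against 24.5% and 21% of all genes. In T164A 10 rose and 4 fell, against 37.1% and 27.2% of all genes. Better covered genes, fitted alone, were called more often. Their shares were 40.3% lower and 28.5% higher in wild type, and 47.7% higher and 37% lower in T164A. An excess of this list over them was not tested. MAPK3 (ERK1) was lower in wild type than in T164A, with a difference of -0.95 (SE 0.07). Among the ETS partners of SRF, ELK1 rose by 1.15 (SE 0.09) and ELK4 fell by 1.29 (SE 0.08) in T164A, while ELK3 fell by 0.45 (SE 0.08) in wild type. MAPK14 (p38 alpha) fell by 0.29 (SE 0.05) in wild type. With close libraries averaged, the calls of ELK3 and MAPK14 in wild type were lost (adjusted p = 0.0658 and 0.168). MAPK8 (JNK1) differed by -0.06 (SE 0.07, limma adjusted p = 0.509) in T164A minus vector. It was called lower under quantile normalization (-0.19, adjusted p = 0.0176), with array weights (-0.13, adjusted p = 0.0306) and without T164A replicate 93 (-0.14, adjusted p = 0.0374).

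Of 20 genes known to carry AP-1 sites, 10 fell and 1 rose in wild type, against 24.5% and 21% of all genes. In T164A 11 fell and 4 rose, against 27.2% and 37.1% of all genes. For better covered genes the shares were 40.3% lower and 28.5% higher in wild type, and 37% lower and 47.7% higher in T164A. The largest falls in T164A were in cornified envelope precursors. SPRR1B fell by 1.08 (SE 0.10) in wild type. In T164A it fell by 5.34 (SE 0.12), and involucrin (IVL) fell by 6.86 (SE 0.16) in T164A. The urokinase gene PLAU fell by 0.81 (SE 0.07) in wild type. VIM, the filament protein vimentin, rose by 4.79 (SE 0.13) in T164A and differed by -0.11 (SE 0.11, limma adjusted p = 0.498) in wild type, where quantile normalization gave a call (-0.30, adjusted p = 0.0266). CCND1 (cyclin D1) rose by 0.89 (SE 0.06) in wild type and differed by 0.11 (SE 0.06, limma adjusted p = 0.156) in T164A, or by 0.17 without vector replicates 1 and 2 (adjusted p = 0.0207). The group means of MMP3 lay below the floor in all 3 groups.

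**Figure D5:**
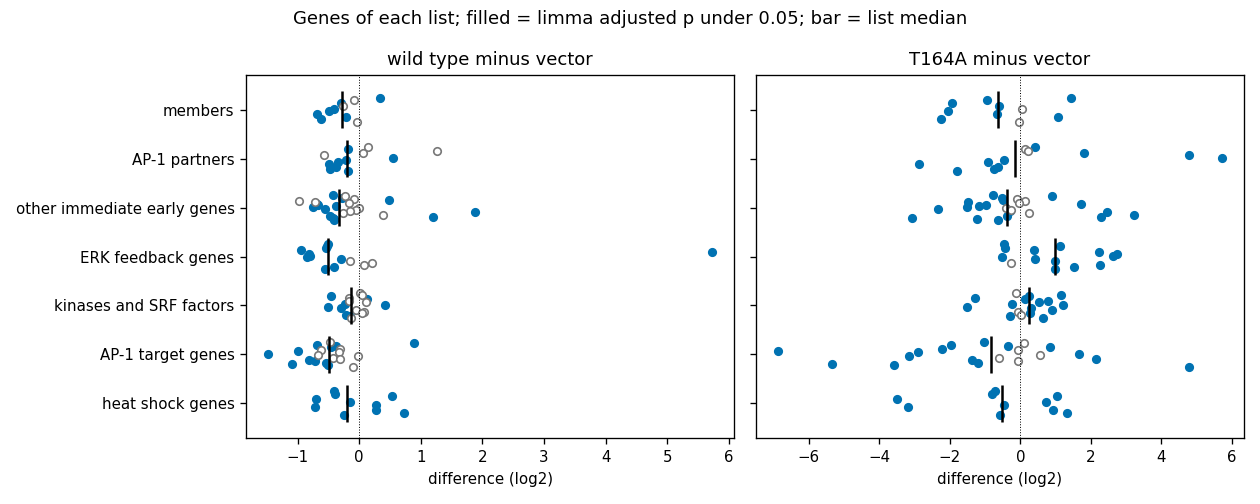
Difference in log2 units (x axis) of the genes of each list (y axis) in both comparisons with vector; filled points were called by limma, open points were not, and bars are list medians. The ERK feedback list, which also holds other ERK outputs, has its median at -0.51 in wild type and 0.99 in T164A. The members lie at -0.28 and -0.64.

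Heat shock genes, which respond to handling and to protein stress, were split. Of 10, 6 fell and 4 rose in each comparison with vector. Of all genes 24.5% fell and 21% rose in wild type, and 27.2% fell and 37.1% rose in T164A. Better covered genes, fitted alone, gave 68.9% called in wild type and 84.7% in T164A. The chaperones HSPE1 and HSP90AA1 rose by 0.73 (SE 0.07) and 0.54 (SE 0.06) in wild type. HSPB1 fell by 3.18 (SE 0.10) in T164A, where HSPE1 rose by 1.34 (SE 0.07). HSPA1A and HSPA1B also met the naming rule, but they are near-identical copies on several rows and their values are uncertain.

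The genes whose profile over the 16 libraries was most like that of a member were found by the root mean square difference of centred log2 values, over 8691 genes. For FOS these were MSLN (0.12), RIPK4 (0.13) and BMF (0.14). Each was lower in T164A by 1.94 to 1.99, beside 1.94 for FOS, which follows from how they were chosen. For FOSL1 they included ELAVL2 (0.14) and THBS2 (0.15). For EGR1 the nearest were further away, MUC1 (0.21), COL8A1 (0.21) and PLAC8 (0.22).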

How the data were processed

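RNA of 16 libraries of RWPE1 cells was extracted with a MagMAX kit, poly-A selected, prepared with TruSeq and sequenced on an Illumina HiSeq, per the labels' protocols. Per the submitters' processing notes, the tools were TopHat2 2.0.4, Cufflinks 2.0.2, CASAVA 1.8.2 and DESeq, on GRCh37, with no roles given. The authors deposited log2 values for 21594 rows; the transformation behind them is not stated, nor is strand or the treatment of reads shared between copies. Above 11.5, 2 raised to the value lies on equal steps after an offset of 1.89 (100% within 0.05 of a step in every library), which gave the estimated reads. Low values carry extra scatter, so no count test was run. The row with the highest mean was kept for each of 304 repeated symbols.

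Libraries were grouped by their labels. All 16 entered 1 limma model (limma 3.58.1, R 4.3.3; variance trend, 13 residual degrees of freedom), tested two-sided with adjustment over 20166 symbols and tested on simulated data. No filter was applied. Ratios had exact permutation tests (adjusted over 9). The 10 members, the lists and the naming rule (all members; per list and comparison the 3 called genes with the smallest p and the gene not called with the highest mean; the 3 nearest profiles to FOS, FOSL1 and EGR1 among genes at a mean of 6 or more, without uncharacterised and non-coding symbols) were chosen with earlier results of these data known. Some genes, including that of the construct, are not reported here. Alternatives were quantile normalization, a filter at a mean of 6, means of repeated rows, only the groups compared, no variance trend, array weights, averaging close libraries and leaving libraries out. Within a group, libraries of a close set differed by 0.13 to 0.23 (root mean square log2 over genes at 6 or more), others by 0.19 to 0.33.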

Additional observations from a re-analysis of the deposited data

Results flagged for a closer look

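In 39 sets of values (10 genes and 3 ratios in 3 groups), 4 had a library far from the rest of its group; chance alone gives about 1 in 20. FOSL2 in T164A replicate 93 was at 11.09, below the other T164A libraries by 0.20. JUND in wild-type replicate 18 was at 9.76, below the other wild-type libraries by 0.17. The log2 ratio JUNB minus JUN in vector replicate 5 was at 2.34, above the other vector libraries by 0.25. The log2 ratio JUND minus JUN in wild-type replicate 14 was at -0.92, below the others by 0.17.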

How the results depend on the processing

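No paired analysis was possible because the groups share no replicate numbers. With close libraries averaged, wild type minus vector had 2274 genes higher and 1547 lower, with 0 members higher and 3 lower (FOSL2, JUNB and IER3). Without vector replicates 1 and 2, chosen after seeing the data, the same comparison had 2 members higher (ATF3 and EGR1) and 3 lower (FOSL2, JUNB and IER3), where 20.9% of all genes were higher and 22.6% lower. There EGR1 was at 0.24 and VIM at 0.075. In T164A minus vector the counts of 2 members higher and 6 lower stood without each library. In wild type minus vector 4 to 7 members were lower without each library. Quantile normalization moved the median over genes averaging 6 or above from 0.11 to -0.06 in T164A minus vector and from -0.12 to 0.02 in wild type minus T164A. The share of calls that were higher in T164A minus vector was 57.7% as deposited and 47.2% under it. It gave FOSL1 -0.38 in T164A minus vector and, in wild type minus T164A, JUND 0.14, IER3 0.13, EPHA2 0.0060, EZR 0.042 and MAP2K1 0.097. It also brought the ratio FOSL1 minus FOS in wild type minus vector to -0.30 (exact permutation, adjusted p = 0.0122). Means of repeated rows gave IER3 0.043 in wild type minus vector and 0.17 in wild type minus T164A, and HSPA1B 0.11 in the latter. Array weights gave JUND 0.061 in T164A minus vector. Averaging close libraries gave MAPK8 0.048 in T164A minus vector and, in wild type minus T164A, JUND 0.093, IER3 0.068, EPHA2 0.037 and EZR 0.043. Without each library in turn, the ratio JUND minus JUN in wild type minus vector ran from 0.11 to 0.27. Uncalled differences that changed sign without a library ranged as follows. In wild type minus vector, this was EGR1 from -0.16 to 0.059 and JUND from -0.075 to 0.065. In T164A minus vector, this was FOSL1 from -0.0051 to 0.14 and JUND from -0.090 to 0.067. In wild type minus T164A, this was MAP2K1 from -0.031 to 0.0095, IER3 from -0.076 to 0.064, JUND from -0.10 to 0.055 and EZR from -0.071 to 0.0041. For these changes the cause was not tested, apart from fewer libraries or repeated rows by construction.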
